A study of Homo sapiens with 6 samples.

Results

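NRF2, the transcription factor encoded by NFE2L2, drives the genes that keep cells supplied with glutathione, thioredoxin and NADPH and that remove quinones and haem. KEAP1 holds NRF2 in the cytoplasm and hands it to a cullin 3 ubiquitin ligase for degradation, and oxidants or electrophiles that modify KEAP1 let NRF2 accumulate. NRF2 then pairs with a small MAF protein and binds antioxidant response elements, short DNA motifs near its targets. A549, an established human lung adenocarcinoma line, is known to carry a loss-of-function KEAP1 mutation, so that its NRF2 programme runs without an added stressor. The KEAP1 genotype was not analysed here.

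The 9 genes described are the regulators NFE2L2 and KEAP1 and 7 NRF2 targets. These are NQO1, GCLC, GCLM, SLC7A11, TXNRD1, SRXN1 and HMOX1. They were taken as listed genes and not by a threshold on their values, although earlier results of these data were known. All 9 were found among the 34957 gene identifiers of the tables. Together they held 81 of the 180253 transcripts, and all 9 passed the minimum mean of 0.5 FPKM (fragments per kilobase of transcript, scaled to library depth) that was set for testing.

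The samples are A549 cells transfected with a negative control siRNA (si-ctrl) or with either of 2 siRNAs against the long noncoding RNA PLANE (si-PLANE.1 and si-PLANE.2). Each group has 2 libraries. They carry the replicate numbers 1 and 2 in si-ctrl and si-PLANE.1, and 3 and 4 in si-PLANE.2. All groups are the same line transfected with Lipofectamine 3000, no group was treated with an NRF2 activator, and the time from transfection to harvest of these libraries is not given in the sources used here. PLANE was not analysed here, and its knockdown was not checked. The authors deposited, for each transcript and library, an FPKM value and an expected count, that is, its estimated number of reads. Here transcripts were summed to genes, FPKM totals are given as levels, and changes were tested on the expected counts. With 2 libraries per group, p-values measure the spread between these samples, which may be in part technical.

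Libraries of si-PLANE.2 differed from the other 4 before any NRF2 gene was considered. Total expected counts were 13643800 and 14267231 in si-ctrl, 11093137 and 10572151 in si-PLANE.1, and 20778431 and 18281765 in si-PLANE.2. The 16 listed histone genes found in the tables, whose mRNAs end without a poly(A) tail, summed to 83.1 and 71.5 FPKM there, against between 2416 and 4509 FPKM elsewhere. Both poly(A) isolation and rRNA removal, and more than one sequencing instrument, are named for these RNAs, with no word on which library had which. What the second siRNA did and how its libraries were prepared therefore cannot be told apart. The globin genes HBB and HBA1, markers of red cells, reached sums of 631 and 610 FPKM under si-ctrl and of 874 FPKM in si-PLANE.1 replicate 1, and both were listed at 0 in the other 3 libraries. Leukocyte markers (4 of 4 in the tables) summed to between 0.53 and 1.3 FPKM, endothelial markers (2 of 3) to between 0.05 and 0.59 FPKM and fibroblast markers (3 of 3) to between 3.37 and 13.6 FPKM. Of the 6 listed epithelial markers, KRT8 and KRT18 were between 2712 and 5823 FPKM and highest in si-PLANE.2, and KRT7 was between 1053 and 1269 FPKM. KRT19 was between 0.76 and 5.38 FPKM. CDH1 went from 130 and 156 FPKM in si-ctrl to 36.5 and 35.4 in si-PLANE.2. EPCAM went from 18.25 and 15.37 FPKM to 2.59 and 2.7 FPKM in the same groups. CDKN2A, deleted in A549, was at or below 0.44 FPKM. The part of other cells, of globin RNA and of the library preparation in the values of the NRF2 genes was not tested.

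The sequence through which NRF2 acts was read from the genome to place the targets beside their values. The core of the antioxidant response element, TGACNNNGC, was searched on both strands of the 1000 bases before the start of the reference transcript (MANE Select) of each protein-coding gene on GRCh37. It was found before 4 of the 9 genes, against 6148 of 18876 protein-coding genes (32.6%), so its presence alone does not set these genes apart. The 4 matches are printed 5′ to 3′ on the strand that carries the motif, with the motif in capitals and 10 bases on either side, because they belong to the genes whose values follow.
NQO1: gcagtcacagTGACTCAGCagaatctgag
GCLM: tggaagacaaTGACTAAGCagaaatcgta
GCLC: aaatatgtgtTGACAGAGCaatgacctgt
TXNRD1: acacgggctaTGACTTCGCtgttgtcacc
The printed stretch for NQO1 is chr16:69760900-69760928 on the minus strand, with the motif 447 bases before the start and within an exon of the divergent noncoding gene NQO1-DT. That for GCLM is chr1:94375002-94375030 on the plus strand, 26 bases before the start and overlapping an exon of another GCLM transcript. That for GCLC is chr6:53410751-53410779 on the plus strand, 862 bases before the start, and that for TXNRD1 is chr12:104609448-104609476 on the plus strand, 91 bases before the start. The last 2 overlap no annotated exon. No match lay in this window of NFE2L2, KEAP1, SLC7A11, SRXN1 or HMOX1, which says only that these letters are not in this window.

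The start site matters for such a search, since some of the genes have several. RefSeq promoter sequences (GRCh38.p14, from 250 bases before to 50 after each start) were at hand for 7 of the 9 genes, SLC7A11 and HMOX1 not being among them. TGACNNNGC was found in those of GCLM, TXNRD1 and KEAP1, against 4687 of 35116 windows in all (13.3%). Some of the 7 genes have several windows, so genes and windows are not like counts and no enrichment is read from them. The GCLM match is the one printed above. The downstream starts of TXNRD1 and KEAP1 carried further matches, shown on the strand of the motif with the motif in capitals.
TXNRD1, downstream start: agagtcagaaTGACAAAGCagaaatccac
KEAP1, downstream start: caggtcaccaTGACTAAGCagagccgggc
On GRCh38 these stretches are chr12:104286920-104286948 on the minus strand and chr19:10502784-10502812 on the plus strand. They are the match nearest to the start among 2 for KEAP1, and the only one for that TXNRD1 start. The MANE Select transcript of TXNRD1 was at most 1.53 FPKM in any library, and the abundant TXNRD1-201 begins 70903 bases downstream of it. The downstream RefSeq start is not that of TXNRD1-201, and the 1000 bases before TXNRD1-201 held no match.

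The level of the NRF2 programme in cells given the control siRNA was read from the si-ctrl libraries. NQO1, a quinone reductase, stood at 1505 and 1222 FPKM, ranks 46 and 66 among the 14440 genes expressed at a mean of at least 0.5 FPKM. Per length, the order of the means in si-ctrl was NQO1 at 1364 ± 200 FPKM, TXNRD1 at 383 ± 6.12 FPKM, GCLC at 161 ± 18.6 FPKM, NFE2L2 at 130 ± 27.03 FPKM and SRXN1 at 118 ± 8.73 FPKM (SD, n = 2). Below them were HMOX1 at 59.1 ± 3.30 FPKM, SLC7A11 at 37.2 ± 6.14 FPKM, GCLM at 20.6 ± 2.16 FPKM and KEAP1 at 16.4 ± 0.636 FPKM (SD, n = 2). The si-ctrl values of GCLC and NFE2L2, and those of NFE2L2 and SRXN1, overlapped, while every other pair of neighbours in this order was separated in these libraries.

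**Figure D1:**
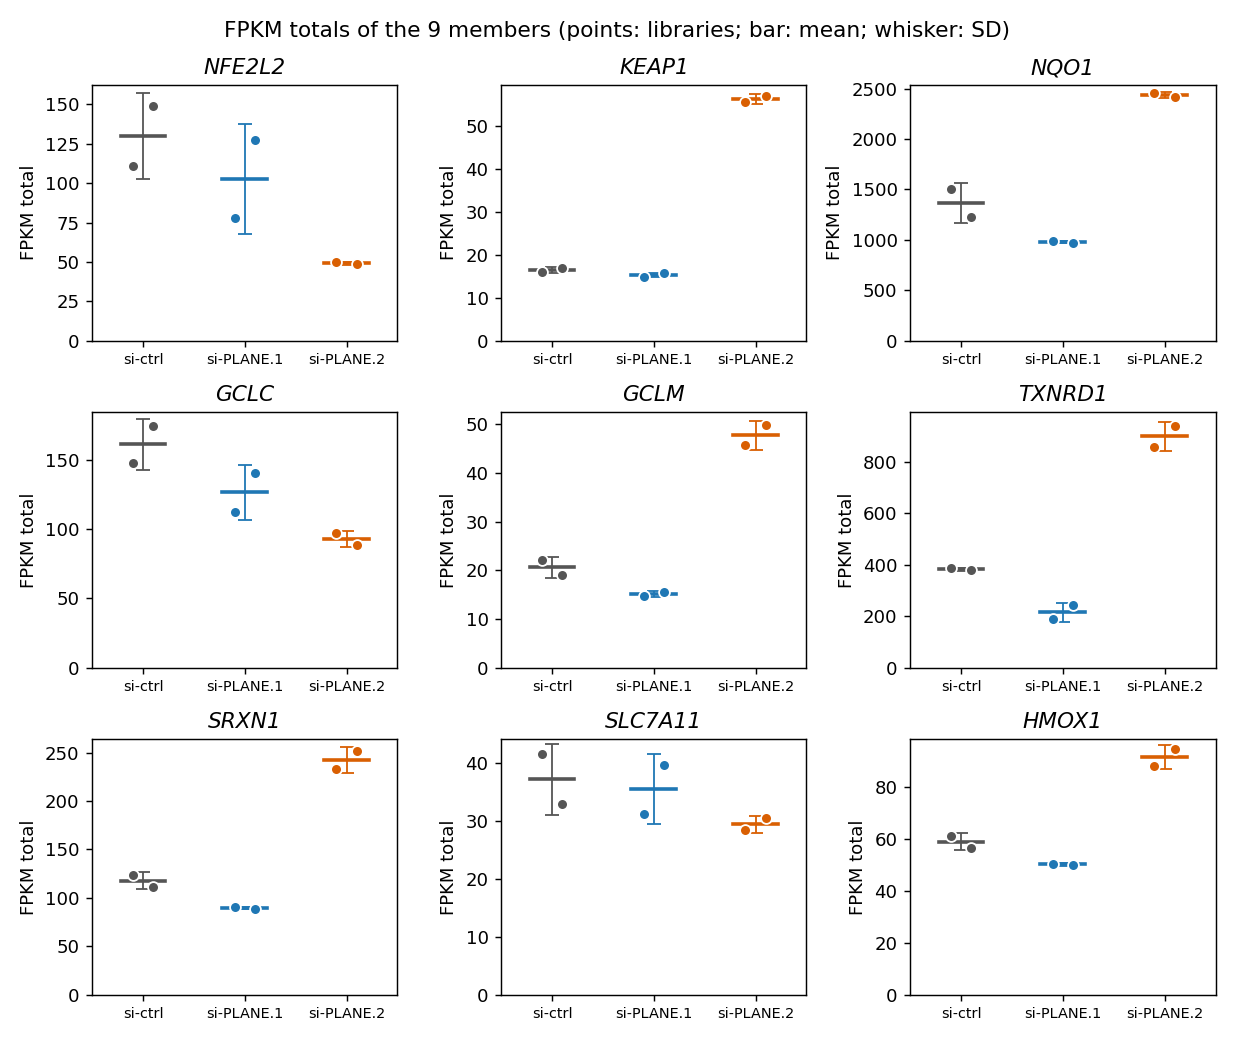
FPKM totals (linear axis from 0) of the 9 genes in the si-ctrl, si-PLANE.1 and si-PLANE.2 libraries, with a point for each library, a bar for the group mean and a whisker for the SD (n = 2). KEAP1, NQO1, GCLM, TXNRD1, SRXN1 and HMOX1 are highest in both si-PLANE.2 libraries, whereas NFE2L2, GCLC and SLC7A11 are lowest there.

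To determine whether the siRNAs changed the programme, each was compared with si-ctrl by edgeR's quasi-likelihood test, with Benjamini-Hochberg adjustment over all genes. In si-PLANE.1 cells all 9 genes were lower than in si-ctrl, by a median of -0.45 on the log2 scale, where the median of all genes was 0.00. None of the 9 passed an adjusted p of 0.05 (edgeR), in a comparison in which 5 of 14535 genes did (0.0344%). At an unadjusted p under 0.05, 6 of the 9 were lower (NFE2L2, NQO1, GCLM, TXNRD1, SRXN1 and HMOX1), against 5.77% of all genes that were lower at that level. DESeq2, run as an alternative, called 2 of the 9 (NQO1 and TXNRD1) and 125 genes in all (0.86%). With the replicate number added to the edgeR fit as a block, 6 of the 9 were called, all lower. These were NFE2L2, NQO1, GCLC, GCLM, TXNRD1 and SRXN1, where 8.43% of all genes were called and 5.03% were lower. The labels do not state that libraries of equal number were paired, but their replicate differences correlated between the groups (r = 0.451). In si-PLANE.2 cells 7 of the 9 passed the adjusted threshold, with KEAP1, NQO1, GCLM, TXNRD1, SRXN1 and HMOX1 higher and NFE2L2 lower. That comparison called 9083 of 14168 genes (64.1%), with 31.8% higher and 32.3% lower, so that a call alone says little about a single gene there. The median of the 9 was 0.78 against -0.03 over all genes. Both comparisons share the si-ctrl libraries, and their values are given side by side and not counted as independent.

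The regulators moved apart in si-PLANE.2 cells. NFE2L2 (chr2:178083395-178257484, minus strand, GRCh37) was 111 and 149 FPKM in si-ctrl, 78.0 and 127 in si-PLANE.1, then 49.8 and 48.5 in si-PLANE.2. The si-ctrl and si-PLANE.1 values overlapped, while both si-PLANE.2 values were below all others. The log2 fold change of its counts was -0.45 (SE 0.19, adjusted p = 0.478, edgeR) in si-PLANE.1 and -0.87 (SE 0.11, adjusted p = 0.000281, edgeR) in si-PLANE.2. Over all annotated transcripts, exons of NFE2L2 overlap 3509 bases of the gene HNRNPA3 on the opposite strand. The counting is not stated to use strand, so reads of the pair may not be told apart. Whether the transcripts counted here hold those bases was not checked. A noncoding gene on the same strand shares 2037 exonic bases with NFE2L2, which strand would not separate. HNRNPA3 stood at 115 and 106 FPKM in si-ctrl and at 213 and 190 FPKM in si-PLANE.2, the opposite direction to NFE2L2.

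KEAP1 (chr19:10596801-10614234, minus strand) was 15.97 and 16.87 FPKM in si-ctrl, 14.9 and 15.7 in si-PLANE.1, then 55.6 and 57.2 in si-PLANE.2. Its level in si-PLANE.2 was over 3 times that of every other library. The counts rose 3.75-fold (log2 1.91, SE 0.10, adjusted p = 8.86e-06, edgeR), the largest change of the 9 in that comparison, and were -0.22 (SE 0.14, adjusted p = 0.624, edgeR) on the log2 scale in si-PLANE.1. As a result the ratio of NFE2L2 to KEAP1 FPKM, which was 6.94 and 8.84 in si-ctrl and 5.23 and 8.13 in si-PLANE.1, was 0.894 and 0.848 in si-PLANE.2.

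Of the 3 genes of glutathione synthesis, GCLM alone was called in si-PLANE.2 on gene totals, and the difference between GCLC and GCLM was not tested. Glutamate cysteine ligase, the rate-limiting enzyme, is a dimer of the catalytic subunit GCLC and the modifier subunit GCLM, and SLC7A11 is the light chain of the transporter that imports cystine, its limiting substrate. GCLM (chr1:94350755-94375012, minus strand) was 22.2 and 19.1 FPKM in si-ctrl, 14.8 and 15.5 in si-PLANE.1, then 45.6 and 49.8 in si-PLANE.2, with no overlap between groups. Its log2 fold change was -0.49 (SE 0.16, adjusted p = 0.41, edgeR) in si-PLANE.1 and 0.67 (SE 0.14, adjusted p = 0.00407, edgeR) in si-PLANE.2.

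GCLC (chr6:53362139-53481768, minus strand) was 148 and 174 FPKM in si-ctrl, 113 and 140 in si-PLANE.1, then 96.9 and 88.8 in si-PLANE.2. On the FPKM scale both si-PLANE.2 libraries were the lowest, yet its counts per 1e6 reads, scaled by TMM factors, were 220.2 and 218 in si-ctrl, 148 and 201 in si-PLANE.1 and 234 and 236 in si-PLANE.2. The count test gave a log2 fold change of 0.09 (SE 0.09, adjusted p = 0.41, edgeR) for si-PLANE.2, whereas limma on log2(FPKM + 1) gave -0.79 (SE 0.15, adjusted p = 0.00957), on a scale where the median of all genes was -0.22. The direction of GCLC in si-PLANE.2 cells thus depended on the scale, and its transcripts, described further on, differed in length between the groups. In si-PLANE.1 the count change was -0.34 (SE 0.16, adjusted p = 0.542, edgeR).

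SLC7A11 (chr4:139085251-139163503, minus strand) was 41.5 and 32.8 FPKM in si-ctrl, 31.2 and 39.7 in si-PLANE.1, then 28.4 and 30.4 in si-PLANE.2. The si-ctrl and si-PLANE.1 ranges overlapped. Its log2 fold change was -0.22 (SE 0.18, adjusted p = 0.714, edgeR) in si-PLANE.1 and -0.11 (SE 0.11, adjusted p = 0.44, edgeR) in si-PLANE.2. A p above the threshold does not show that its level stayed the same. Without si-ctrl replicate 2 its change in si-PLANE.2 passed the threshold at -0.22 (adjusted p = 0.0246, edgeR).

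The thioredoxin genes TXNRD1 and SRXN1 both rose in si-PLANE.2. TXNRD1, thioredoxin reductase 1, passes electrons from NADPH to thioredoxin. TXNRD1 (chr12:104609557-104744085, plus strand) was 387 and 379 FPKM in si-ctrl, 190 and 242 in si-PLANE.1, then 860.0 and 939 in si-PLANE.2, so the 3 groups did not overlap. Counts in si-PLANE.2 were 2.36-fold those in si-ctrl (log2 1.24, SE 0.11, adjusted p = 5.6e-05, edgeR). In si-PLANE.1 the log2 fold change was -0.95 (SE 0.19), the largest of the 9 there, with an unadjusted p = 0.00115 from edgeR and an adjusted p = 0.277 (edgeR).

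SRXN1, sulfiredoxin, repairs overoxidised peroxiredoxins. SRXN1 (chr20:627259-633844, minus strand) was 124 and 112 FPKM in si-ctrl, 90.6 and 88.9 in si-PLANE.1, then 233 and 252 in si-PLANE.2. Its groups did not overlap, and the log2 fold change was -0.48 (SE 0.13, adjusted p = 0.332, edgeR) in si-PLANE.1 and 1.23 (SE 0.10, adjusted p = 4.99e-05, edgeR) in si-PLANE.2. A readthrough gene on the same strand shares 2292 exonic bases with SRXN1 and stood at 0.72 and 0.28 FPKM in si-PLANE.2 and was listed at 0 in the other 4 libraries.

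NQO1 and HMOX1 rose by similar amounts in si-PLANE.2. NQO1 (chr16:69740899-69760571, minus strand) was 1505 and 1222 FPKM in si-ctrl, 986 and 971 in si-PLANE.1, then 2454 and 2418 in si-PLANE.2. It ranked between 46 and 77 among these genes in every library, and its groups did not overlap. The log2 fold change was -0.54 (SE 0.17, adjusted p = 0.386, edgeR) in si-PLANE.1 and 0.79 (SE 0.12, adjusted p = 0.000735, edgeR) in si-PLANE.2. Counting only transcripts of at least 1000 bases, an alternative chosen after the data had been seen, NQO1 was 0.28 in si-PLANE.2 (adjusted p = 0.0503, edgeR). HMOX1, haem oxygenase 1 (chr22:35776354-35790207, plus strand), was 61.4 and 56.7 FPKM in si-ctrl, 50.6 and 49.9 in si-PLANE.1, then 88.2 and 94.8 in si-PLANE.2. Its log2 fold change was -0.32 (SE 0.11, adjusted p = 0.419, edgeR) and 0.78 (SE 0.09, adjusted p = 0.000227, edgeR), respectively. On log2(TPM + 1) the second was 0.47 and did not pass (adjusted p = 0.057, limma).

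**Figure D2:**
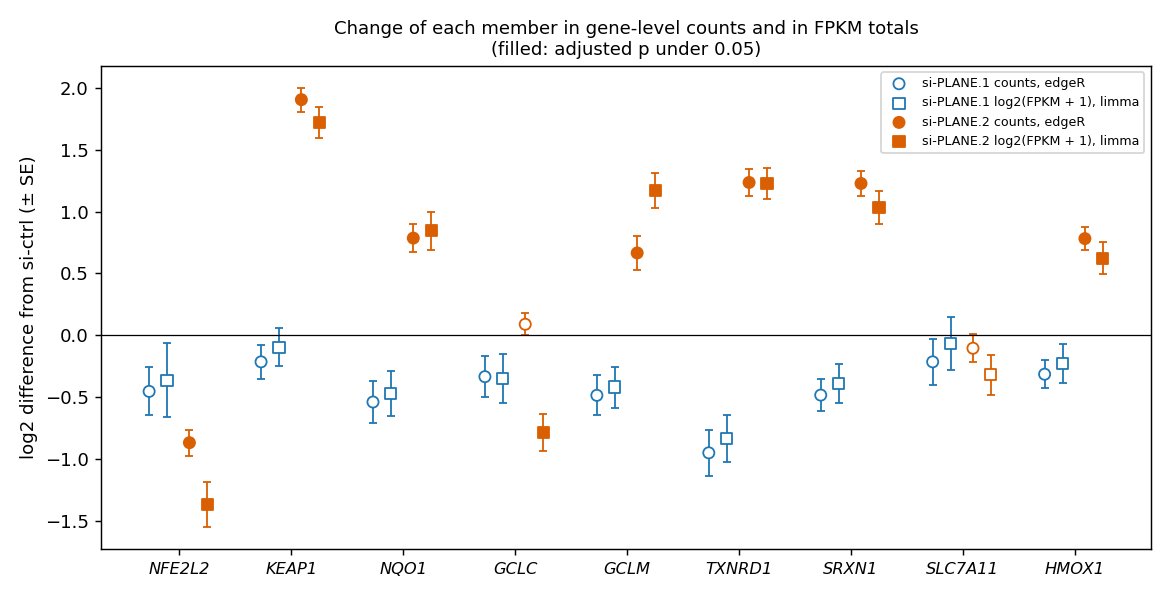
Log2 difference from si-ctrl (± SE, 2 libraries against 2) of the 9 genes in si-PLANE.1 (blue) and si-PLANE.2 (orange), from edgeR on expected counts (circles) and from limma on log2(FPKM + 1) totals (squares), filled where the adjusted p is under 0.05. All 9 circles of si-PLANE.1 lie below 0, 7 circles of si-PLANE.2 lie above it, and the circle and the square of GCLC in si-PLANE.2 lie on opposite sides, at 0.09 and -0.79.

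FPKM totals were also compared library by library, a count that differs from the edgeR calls for GCLC and SLC7A11 in si-PLANE.2. For si-PLANE.1, 7 of the 9 genes were below both si-ctrl libraries (all but NFE2L2 and SLC7A11), against 14.2% of all genes. For si-PLANE.2, 6 genes were above both si-ctrl libraries, against 30.9% of all genes, and 3 were below both (NFE2L2, GCLC and SLC7A11), against 49.7%.

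The siRNAs were also compared with each other, in a fit of all 6 libraries, to test the difference between their effects. Of the 9 genes, 7 were higher in si-PLANE.2 than in si-PLANE.1 past the adjusted threshold, where 9305 of 14440 genes were called (64.4%) and 31.1% were higher. The log2 difference was 2.19 for TXNRD1 (SE 0.17, adjusted p = 1.17e-05, edgeR), 2.13 for KEAP1 (SE 0.10, adjusted p = 1.45e-06, edgeR) and 1.72 for SRXN1 (SE 0.11, adjusted p = 5.82e-06, edgeR). NQO1, GCLM and HMOX1 differed by 1.33, 1.16 and 1.10. GCLC was 0.43 higher (SE 0.14, adjusted p = 0.0274, edgeR), a call that was lost without si-PLANE.1 replicate 1 (0.22, adjusted p = 0.124, edgeR), without si-PLANE.2 replicate 3 (0.44, adjusted p = 0.101, edgeR) or without si-PLANE.2 replicate 4 (0.43, adjusted p = 0.106, edgeR). NFE2L2 was at -0.41 (SE 0.17, adjusted p = 0.0653, edgeR) and SLC7A11 at 0.12 (SE 0.16, adjusted p = 0.55, edgeR). Without si-PLANE.1 replicate 1 NFE2L2 passed the threshold at -0.67 (adjusted p = 0.0029, edgeR). The same limit of the si-PLANE.2 libraries, that siRNA and preparation cannot be told apart, holds for this comparison.

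The transcripts of the 9 genes were examined next, since a gene total can hide a change of isoform. In si-PLANE.1, none of the 53 tested transcripts passed the threshold, in a comparison in which edgeR called 0 of 57625 transcripts (0.0%), 2552 had an unadjusted p under 0.05 and DESeq2 called 397, among them 4 of these genes. In si-PLANE.2, 30 of 62 tested transcripts passed it, 19 higher and 11 lower, against 25.6% of 56791 transcripts (12.9% higher and 12.7% lower). Of these calls, TXNRD1-207, ENST00000540716, GCLC-206, HMOX1-202 and KEAP1-209 were at 0 in si-ctrl and could only come out higher. TXNRD1-211 and TXNRD1-212, at 0 in si-PLANE.2, could only come out lower. TXNRD1-202 and ENST00000542918, with identical values, count as separate calls. The share over all transcripts rests on the same filter. Without either si-PLANE.2 replicate 3 or replicate 4, 0 transcripts of any gene passed, while 19034 and 19278 transcripts respectively had an unadjusted p under 0.05. On simulated data with the spread estimated from these libraries, the transcript fit recovered none of the changes put in, in either comparison. The gene fit recovered 98% of 4-fold and 56% of 2-fold changes in si-PLANE.1, with 20 false calls. In si-PLANE.2 it recovered 100% and 86%, with 29 false calls. The simulation changed only a small set of well-counted features and left all others unchanged. In the real si-PLANE.2 comparison 64.1% of genes and 25.6% of transcripts were called, so these rates do not give the sensitivity in these data. A transcript that did not pass, or a gene with a change under 2-fold in si-PLANE.1, is not shown to be unchanged. Calls of GCLC-207 and HMOX1-202 were also lost without either si-ctrl library, and those of HMOX1-201 and NQO1-202 on each FPKM or TPM scale with limma. Transcript names are those of GENCODE, and 12 of the 81 transcripts had no entry in the annotation used and are given by identifier.

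NFE2L2 fell through some isoforms only. NFE2L2-202 was 46.5 and 39.3 FPKM in si-ctrl, against 12.2 and 6.32 in si-PLANE.2 (log2 fold change -1.92, SE 0.37, adjusted p = 0.032, edgeR). The short NFE2L2-211, of 870 bases, was 32.2 and 59.9 FPKM in si-ctrl, against 14.5 and 8.16 in si-PLANE.2 (log2 fold change -1.70, SE 0.48, adjusted p = 0.0689, edgeR). NFE2L2-201, the MANE Select transcript, went the other way, from 9.49 and 13.4 FPKM in si-ctrl to 18.0 and 23.9 FPKM in si-PLANE.2 (log2 fold change 1.15, SE 0.25, adjusted p = 0.042, edgeR). The call of NFE2L2-201 was lost by total count (0.88, adjusted p = 0.0708, edgeR), on each FPKM or TPM scale (adjusted p between 0.0881 and 0.141, limma) and without si-ctrl replicate 1 (0.86, adjusted p = 0.0878, edgeR). That of NFE2L2-202 was lost without si-ctrl replicate 1 (-1.87, adjusted p = 0.0709, edgeR) or replicate 2 (-2.08, adjusted p = 0.0612, edgeR). The mean share of NFE2L2-201 in the gene's FPKM was 8.77% in si-ctrl, 7.71% in si-PLANE.1 and 42.7% in si-PLANE.2.

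KEAP1 rose through both of its long isoforms. KEAP1-202 was 13.3 and 13.4 FPKM in si-ctrl, 13.7 and 12.5 in si-PLANE.1, then 38.3 and 36.1 in si-PLANE.2 (log2 fold change 1.77 in si-PLANE.2, SE 0.12, adjusted p = 0.00679, edgeR). KEAP1-201, the MANE Select transcript, was 2.06 and 1.56 FPKM in si-ctrl, 1.10 and 0.79 in si-PLANE.1, then 9.91 and 12.9 in si-PLANE.2 (log2 fold change 2.93 in si-PLANE.2, SE 0.26, adjusted p = 0.00901, edgeR). Both values of KEAP1-201 in si-PLANE.2 were above those of all other libraries.

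GCLC shifted between short and long transcripts. Its long transcript ENST00000229416, of 3813 bases, was 43.4 and 31.6 FPKM in si-ctrl, against 48.2 and 50.2 in si-PLANE.2 (log2 fold change 0.67, SE 0.17, adjusted p = 0.0581, edgeR). GCLC-207, of 519 bases, was 29.3 and 37.1 FPKM in si-ctrl, 23.5 and 32.4 in si-PLANE.1, then 0.67 and 0 in si-PLANE.2 (log2 fold change -6.10, SE 1.19, adjusted p = 0.0332, edgeR). GCLC-206, annotated as a retained intron, was at 16.02 and 13.53 FPKM in si-PLANE.2, from 181 and 134 counts, and listed at 0 in the other 4 libraries. Against a floor of 3 counts per si-ctrl library its level relative to depth was at least 37.3-fold higher.
Transcripts under 1000 bases held 60.4% and 68.2% of the GCLC FPKM in si-ctrl and 45.9% and 38.8% in si-PLANE.2, but only 11.1% and 16% of the counts in si-ctrl and 8.8% and 6.9% in si-PLANE.2. The FPKM total of GCLC was therefore mostly a sum over short transcripts in si-ctrl that few counts supported. The ratio of the long GCLC transcript to GCLM-201, the main GCLM transcript, was 2.18 and 2.20 in si-ctrl, 2.32 and 2.48 in si-PLANE.1, and 2.11 and 2.35 in si-PLANE.2. On FPKM totals the ratio of GCLC to GCLM was 6.68 and 9.12 in si-ctrl and 2.12 and 1.78 in si-PLANE.2.

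GCLM itself changed in composition. GCLM-201, the MANE Select transcript of 4857 bases, was 19.9 and 14.4 FPKM in si-ctrl, against 22.9 and 21.4 in si-PLANE.2 (log2 fold change 0.65, SE 0.19, adjusted p = 0.0729, edgeR). GCLM-203, of 625 bases and without a defined coding sequence, was 1.35 and 3.25 FPKM in si-ctrl, 0.28 and 0 in si-PLANE.1, then 22.8 and 28.4 in si-PLANE.2 (log2 fold change 3.81, SE 0.56, adjusted p = 0.0193, edgeR). It made up 53.5% of the GCLM FPKM in si-PLANE.2 on average, but 7.8% and 10.1% of the counts. GCLM-202 was between 0.88 and 2.0 FPKM in the other 4 libraries and listed at 0 in both si-PLANE.2 libraries (log2 fold change -5.60, SE 1.54, adjusted p = 0.0874, edgeR). SLC7A11 was carried by SLC7A11-201, with 95.1% of its FPKM in si-ctrl, 90.4% in si-PLANE.1 and 98.6% in si-PLANE.2.

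TXNRD1 had 28 listed transcripts, of which 7 rose and 4 fell past the threshold in si-PLANE.2. ENST00000388854, of 3900 bases, was 36.2 and 39.2 FPKM in si-ctrl, 18.7 and 16.9 in si-PLANE.1, then 196 and 201 in si-PLANE.2 (log2 fold change 2.68 in si-PLANE.2, SE 0.10, adjusted p = 0.00529, edgeR). It took 37.1% and 37.4% of the TXNRD1 counts in si-PLANE.2, against 13.4% and 16.1% in si-ctrl. TXNRD1-201, of 3930 bases, was 91.8 and 87.8 FPKM in si-ctrl, 46.0 and 49.5 in si-PLANE.1, then 105 and 90.6 in si-PLANE.2 (log2 fold change 0.41 in si-PLANE.2, SE 0.12, adjusted p = 0.0783, edgeR). ENST00000397736 was 72.7 and 51.3 FPKM in si-ctrl, against 68.5 and 48.1 in si-PLANE.2. The group values of the last transcript overlapped.

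A short TXNRD1 transcript appeared in the si-PLANE.2 libraries alone. TXNRD1-207, of 577 bases, was at 136 and 177 FPKM in si-PLANE.2, from 977 and 1111 counts, and listed at 0 in the other 4 libraries. Against a floor of 3 counts per si-ctrl library it was at least 251-fold higher relative to depth, and it held 17.4% of the TXNRD1 FPKM in si-PLANE.2 but only 2.43% and 3.09% of the counts. ENST00000540716, of 2048 bases and named after its values were seen, was likewise listed at 0 in the other 4 libraries. In si-PLANE.2 it was at 30.45 and 61.92 FPKM, from 1149 and 2053 counts. TXNRD1-202 and ENST00000542918 had identical lengths and values, 63.1 and 52.5 FPKM in si-ctrl, 23.9 and 36.9 in si-PLANE.1, then 109 and 121 in si-PLANE.2 each, so that the reads of the pair cannot be assigned to either. The log2 fold change in si-PLANE.2 was 1.28 for each (SE 0.13, adjusted p = 0.0108, edgeR). These calls were lost on log2(FPKM + 0.1) and on log2(TPM + 1) (adjusted p = 0.0673 and 0.0653, limma).

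NQO1 rose mainly through its shorter transcripts. NQO1-206, of 892 bases, was 618 and 493 FPKM in si-ctrl, 410.1 and 371 in si-PLANE.1, then 1159 and 1155 in si-PLANE.2 (log2 fold change 1.37 in si-PLANE.2, SE 0.14, adjusted p = 0.0104, edgeR). NQO1-204, of 924 bases, was 381 and 295 FPKM in si-ctrl, against 681 and 705 in si-PLANE.2 (log2 fold change 1.35, SE 0.15, adjusted p = 0.0119, edgeR). Both calls were lost on log2(FPKM + 0.1) (adjusted p = 0.0614 for NQO1-206 and 0.0679 for NQO1-204, limma). The same held on log2(TPM + 1) (adjusted p = 0.0574 and 0.0665, limma). NQO1-202 was 241 and 186 FPKM in si-ctrl, against 383 and 345 in si-PLANE.2 (log2 fold change 1.08, SE 0.16, adjusted p = 0.0203, edgeR), and NQO1-203, of 2527 bases, was 202 and 177 FPKM against 215 and 203 FPKM (log2 fold change 0.43, SE 0.11, adjusted p = 0.0557, edgeR). The MANE Select transcript NQO1-201, which is described here after its values were seen, was 54.0 and 59.4 FPKM in si-ctrl, 29.1 and 80.4 in si-PLANE.1, then 9.0 and 3.18 in si-PLANE.2. Transcripts under 1000 bases held 44.8% and 41.8% of the NQO1 counts in si-ctrl and 59.2% and 61.7% in si-PLANE.2.

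HMOX1 was carried by HMOX1-201, at 57.7 and 54.1 FPKM in si-ctrl, 47.9 and 47.9 in si-PLANE.1, then 83.3 and 77.4 in si-PLANE.2 (log2 fold change 0.82 in si-PLANE.2, SE 0.11, adjusted p = 0.0168, edgeR). HMOX1-202, of 921 bases, was at 4.47 and 15.4 FPKM in si-PLANE.2, from 63.9 and 193 counts, and listed at 0 in the other 4 libraries, which is at least 31.7-fold higher per read sequenced against the floor of 3 counts per si-ctrl library. The 2 si-PLANE.2 libraries differed by more than 3 times for it. SRXN1 had the single transcript SRXN1-201, whose values are those of the gene.

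Transcripts annotated as retained introns took a smaller share of the counts in si-PLANE.2 for several of the genes. The share was 5.16% and 5.16% of NFE2L2 counts in si-ctrl, 7.22% and 6.02% in si-PLANE.1, and 1.08% and 0.67% in si-PLANE.2. For TXNRD1 it was 0.43% and 0.56% in si-ctrl, 0.69% and 0.57% in si-PLANE.1, and 0.04% and 0.03% in si-PLANE.2. For HMOX1 it was 1.19% and 0.62% in si-ctrl, 1.11% and 0.7% in si-PLANE.1, and 0.11% and 0.21% in si-PLANE.2. GCLC went the other way. For GCLC the share went from 2.17% and 2.83% in si-ctrl to 4.64% and 4.12% in si-PLANE.2, mostly through GCLC-206. For KEAP1 it was 0% in both si-ctrl libraries, 0% and 0.4% in si-PLANE.1, and 0.42% and 0.5% in si-PLANE.2. It rested on at most 11.52 counts in a library. No test was run on these shares. The share over all genes was not computed, so the changes are not shown to be particular to these genes.

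**Figure D3:**
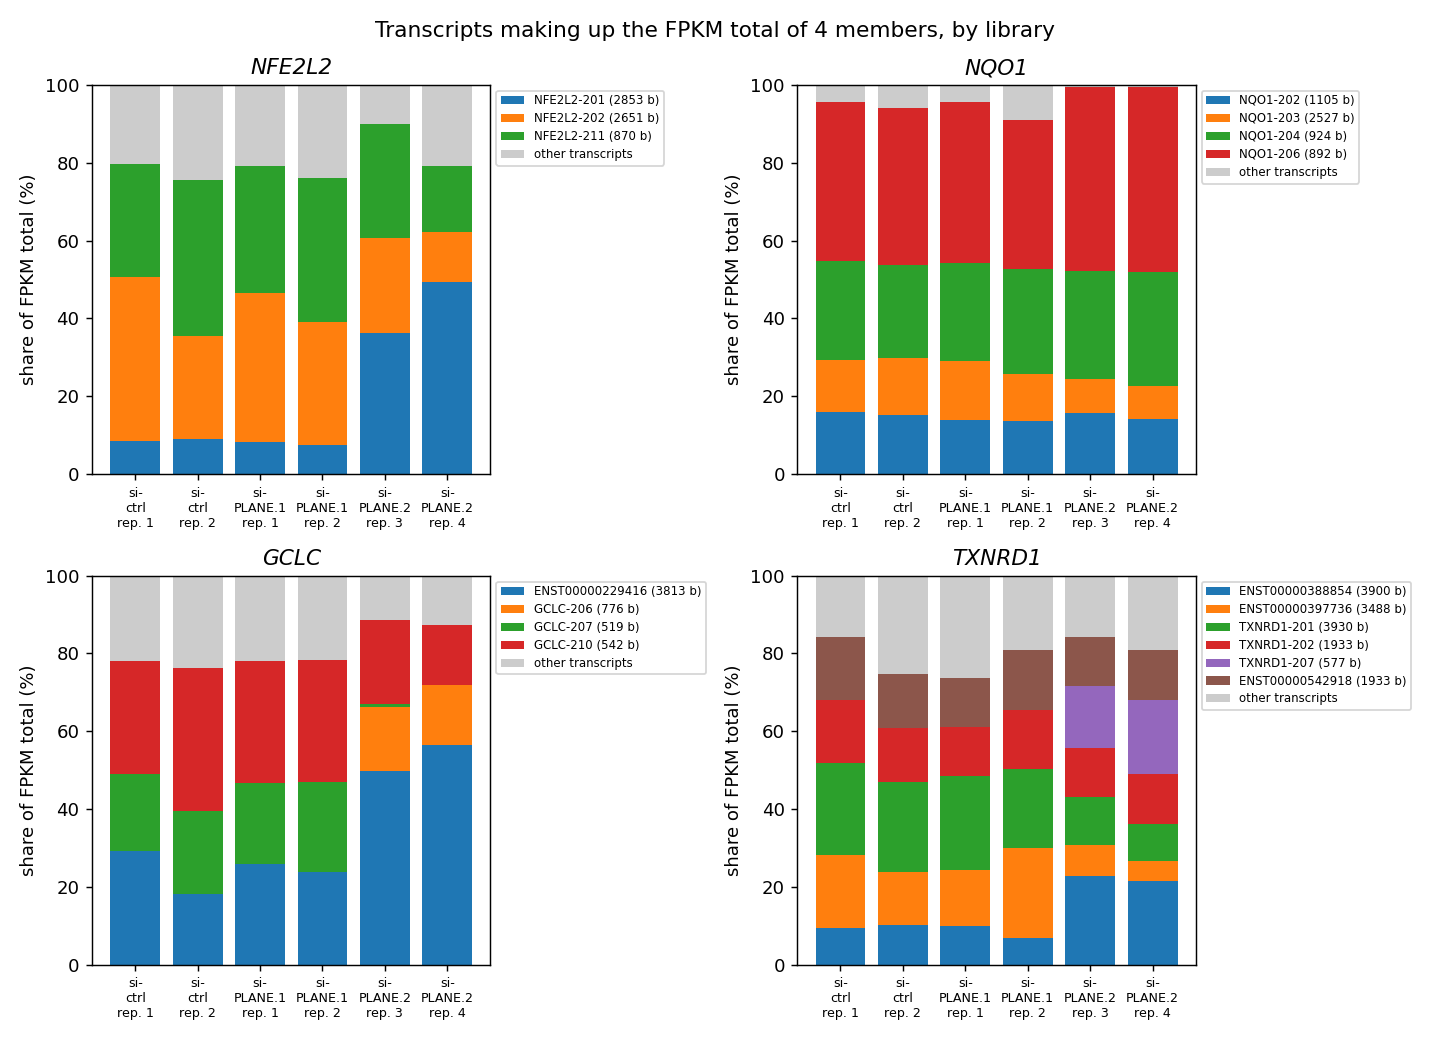
Share of the FPKM total (percent, stacked to 100%) held by each transcript that made up at least 10% of NFE2L2, NQO1, GCLC or TXNRD1 on average in any group, for each of the 6 libraries, with all other transcripts in grey. Libraries of si-ctrl and si-PLANE.1 resemble each other, while in si-PLANE.2 NFE2L2-201 and the long GCLC transcript widen, GCLC-207 nearly vanishes and TXNRD1-207 and GCLC-206 appear.

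The rest of the pathway was followed through 7 lists of genes, with the 9 genes left out. Of 75 tested genes in these lists, 60 were lower in si-PLANE.1 than in si-ctrl, with none past the adjusted threshold, against 49.7% of all genes that were lower, and their median was -0.21. In si-PLANE.2, 50 were higher past the threshold (66.7%) and 5 were lower (6.67%), against 31.8% and 32.3% of all genes, with a median of 0.74. The 15 housekeeping genes, taken as a control list, showed 9 higher and 1 lower past the threshold in si-PLANE.2 (median 0.66) and 13 lower in si-PLANE.1 (median -0.26, none past the threshold). The housekeeping genes thus moved in the same direction as the NRF2 lists under either siRNA, with RPLP0 at 1.31 in si-PLANE.2. On TPM values the housekeeping median in si-PLANE.2 was 0.02, and that of the 7 lists 0.38, while the median of all genes was -0.38.

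In the list of NRF2 regulators (11 genes tested), 4 rose and 3 fell in si-PLANE.2. SQSTM1, an autophagy receptor that binds KEAP1, rose 4.14-fold (log2 2.05, SE 0.11), and the small MAF genes MAFK and MAFG, partners of NRF2, rose by 1.00 and 0.86. RBX1, the RING subunit of the cullin 3 ligase, rose by 0.78. The 3 that fell, named after their values were seen, were the repressor BACH1 at -0.39, the kinase GSK3B at -0.63 and the coactivator CREBBP at -0.50. CUL3, the ligase scaffold, was at -0.01 and did not pass the threshold. The list median was 0.04 in si-PLANE.2 by TMM and below 0 under each of the 4 other scalings. Relative to the median of all genes, it was 0.065 by total count and 0.082 by upper quartile in si-PLANE.2. On FPKM and TPM it was -0.115 and -0.13 relative to all genes. In si-PLANE.1 the list median was -0.08 by TMM and 0.10 on TPM, where the median of all genes was 0.14.

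In the glutathione list, 7 of 11 genes rose in si-PLANE.2 and none fell, with a median of 0.85. SLC3A2, the heavy chain that pairs with SLC7A11, rose 5.04-fold (log2 2.33, SE 0.11, adjusted p = 6e-06, edgeR), while SLC7A11 itself was at -0.11. GSTP1, a glutathione transferase, rose by 1.64, GPX1, a glutathione peroxidase, by 1.50 and GSS, glutathione synthetase, by 1.44. In si-PLANE.1 the list median was -0.17, and it was 0.03 on TPM values, where the median of all genes was 0.14.

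In the thioredoxin list, 7 of 9 tested genes rose in si-PLANE.2, with a median of 1.05. They included the peroxiredoxins PRDX3 at 1.69, PRDX5 at 1.53 and PRDX1 at 1.50, and mitochondrial TXNRD2 at 1.63. TXN, the thioredoxin that TXNRD1 reduces, was at -0.08 in si-PLANE.2 and -0.62 (SE 0.13, adjusted p = 0.278, edgeR) in si-PLANE.1. PRDX2 was below the minimum for testing.

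In the list of haem and iron genes, 8 of 9 rose in si-PLANE.2 and the median was 0.87. BLVRB, a biliverdin reductase that acts after haem oxygenase, rose by 1.68, the ferritin chains FTL and FTH1 by 1.40 and 1.35, and TFRC, the transferrin receptor, by 0.88. Ferritin has many near-identical pseudogene copies, so its values are uncertain. All 7 genes of NADPH supply were higher in si-PLANE.2, 6 of them past the threshold, among them PGLS at 1.36 and TALDO1 at 1.28, enzymes of the pentose phosphate pathway, and ME1, malic enzyme, at 0.68. The medians of the 2 lists in si-PLANE.1 were -0.30 and -0.38, with no gene past the threshold.

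Of 16 detoxification genes 11 rose and 1 fell in si-PLANE.2, with a median of 0.53. AKR1B10 rose by 1.81, the carbonyl reductases CBR3 and CBR1 by 1.60 and 1.57, and AKR1C1 by 0.95, the last being near-identical to AKR1C2 and AKR1C3 and so uncertain. EPHX1, a microsomal epoxide hydrolase named after its value was seen, fell by 0.28. Of 12 other NRF2 targets 7 rose and 1 fell, with a median of 0.87. OSGIN1 rose 6.81-fold (log2 2.77, SE 0.13), TRIM16 by 1.52, GDF15 by 1.38 and TRIM16L, which resembles TRIM16 and is uncertain, by 1.37, while SLC6A6, named after its value was seen, was at -0.69. In si-PLANE.1 the median of these targets was -0.30 by TMM and 0.01 on TPM, where the median of all genes was 0.14.

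Targets of ATF4, a stress factor that also drives SLC7A11, were followed as a neighbouring programme. Of 10 genes 8 rose in si-PLANE.2 (median 0.83), led by TRIB3 at 1.87, ATF3 at 1.62, PHGDH at 1.27 and SLC7A5 at 1.02. In si-PLANE.1 this list had a median of 0.32, above 0 where the NRF2 lists and the 9 genes had medians below 0, with none of the 10 past the threshold. By library, relative to the si-ctrl mean, the list median was 0.50 in si-PLANE.1 replicate 1 and 0.024 in replicate 2, so the value rests on replicate 1. The difference between these lists was not tested.

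**Figure D4:**
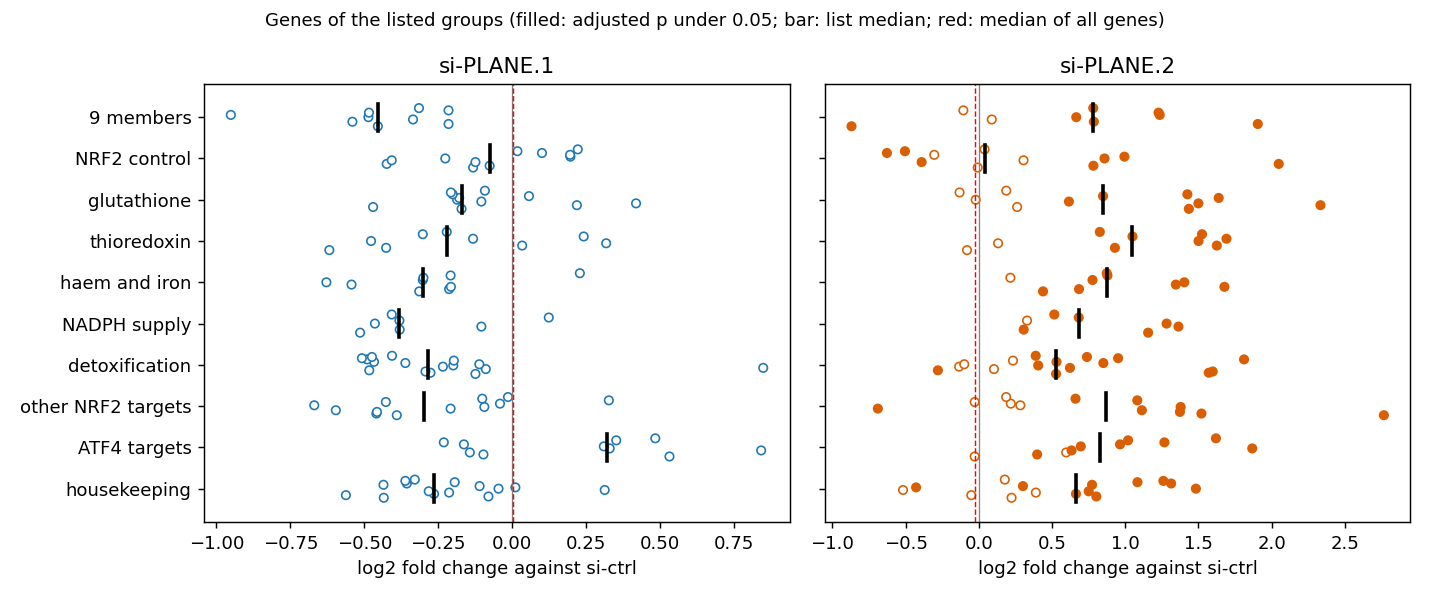
Log2 fold change against si-ctrl (edgeR) of each tested gene in the 9 genes and 9 lists, for si-PLANE.1 (left) and si-PLANE.2 (right), filled where the adjusted p is under 0.05, with a black bar at each median and a red dashed line at the median of all genes. In si-PLANE.1 every list median but that of the ATF4 targets lies below 0. In si-PLANE.2 every list median lies above 0, that of the housekeeping genes (0.66) included. Under other scalings the medians of the NRF2 regulators, glutathione genes and other NRF2 targets change sign in si-PLANE.1. That of the NRF2 regulators does so in si-PLANE.2. Relative to the median of all genes on the same scale, the si-PLANE.1 medians of these lists stay below. The regulators in si-PLANE.2 are above it by total count and upper quartile, and below it on FPKM and TPM.

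The genes whose FPKM followed a member most closely over the 6 libraries were sought among 10041 genes with a mean of at least 5 FPKM, by Pearson's r on log2(FPKM + 1). The 6 libraries fall into groups with si-PLANE.2 apart, which the correlations share. For NFE2L2 they were ITSN1 (r = 0.999), RPL22P1 (r = 0.998), a pseudogene whose reads may belong to its parent gene, and TMEM68 (r = 0.997). For KEAP1 they were LAMTOR1, HSD17B1 and MZT2A, each at r = 1.000 on rounding. For NQO1 they were MCM6 (r = 0.999), CPSF4 (r = 0.998) and SKP1 (r = 0.998). MCM6, a subunit of the replicative helicase, was 19.9 and 13.6 FPKM in si-ctrl, 10.7 and 10.2 in si-PLANE.1, then 39.7 and 37.2 in si-PLANE.2. This is the order of the groups that NQO1 shows, a likeness for which MCM6 was picked. HSD17B1 was between 0.62 and 1.0 FPKM in si-ctrl and si-PLANE.1. It stood at 14.97 and 15.6 FPKM in si-PLANE.2, so it reached the minimum mean only through that group.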

How the data were processed

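RNA was sequenced from 6 A549 libraries in 3 groups of 2, taken from the sample labels. The submitters' processing notes name Trimmomatic 0.30, HISAT2 2.0.1, HTSeq 0.6.1 and DESeq with hg19, and the tool that estimated the counts per transcript is not given in the sources used here. The authors deposited an expected count, without normalization, and an FPKM value, normalized for transcript length and depth, for each transcript and library. The 2 tables hold the same si-ctrl values. Transcripts without a gene identifier (16723 of 180253) held 3.03% to 3.62% of the counts and were left out of genes.

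After rounding, edgeR 4.0.16 in R 4.3.3 was applied to gene and transcript counts (TMM, glmQLFit, glmQLFTest, Benjamini-Hochberg adjusted p under 0.05), in a fit of 4 libraries per siRNA and of all 6 for the difference, for features with a mean of at least 0.5 FPKM. Standard errors are the absolute log2 fold change over the root of F. Scripts were tested on simulated data, in which the transcript fit recovered changes only where the spread between replicates was set low. Alternatives were DESeq2 1.42.0, limma 3.58.1 on FPKM and TPM, other scalings, filters, a replicate block, main isoforms only and leaving out each library. Floors of 3 counts cover counting error only. Lists and coordinates used GENCODE v44 lifted to GRCh37, gene symbols and RefSeq synonyms, and genes that did not match are not analysed here.

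The members, lists and tests were chosen with earlier results of these data known. Text names all members, each transcript with at least 10% of its gene's FPKM in any group, at most 4 genes per list with the largest change past the threshold, and the 3 genes most like NFE2L2, KEAP1 and NQO1. Some genes that this rule names are not reported here.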

Additional observations from a re-analysis of the deposited data

Results flagged for a closer look

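The difference between the siRNAs, tested in the fit of all 6 libraries, passed the threshold for 7 of the 9 genes, each of them higher in si-PLANE.2 than in si-PLANE.1. The log2 difference was 2.13 for KEAP1, 1.33 for NQO1, 0.43 for GCLC, 1.16 for GCLM, 2.19 for TXNRD1, 1.72 for SRXN1 and 1.10 for HMOX1. The direction of GCLC turned on log2(FPKM + 1), where it was -0.44 (adjusted p = 0.069, limma), and its call was lost without si-PLANE.1 replicate 1, si-PLANE.2 replicate 3 or si-PLANE.2 replicate 4, at 0.22, 0.44 and 0.43. In this comparison 64.4% of all genes passed the threshold. The histone mRNAs without a poly(A) tail differed between the same libraries (summed FPKM of 2416 and 3106 in si-PLANE.1, 83.1 and 71.5 in si-PLANE.2), so the siRNA and the library preparation cannot be told apart.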

How the results depend on the processing

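In si-PLANE.1, 0 of the 9 genes passed in every alternative but DESeq2, which called 2, and the replicate block, which called 6 of the 9 (NFE2L2, NQO1, GCLC, GCLM, TXNRD1 and SRXN1) and 1225 genes in all (8.43%, 5.03% lower). The labels of si-ctrl and si-PLANE.1 share the replicate numbers 1 and 2 and state no pairing. Differences between replicates correlated between the 2 groups at r = 0.451 over 14535 genes, a shared part that the fit without a block leaves in the spread. No paired analysis was possible for si-PLANE.2 because its libraries carry other numbers. Among transcripts in si-PLANE.1, DESeq2 called 4 in place of 0, and the replicate block called 0. Genes called in all numbered 5 in that comparison, but 17 in a fit of all 6 libraries, 16 on log2(FPKM + 0.1) and 0 on log2(FPKM + 1). Leaving out each library gave 0 to 0 genes for si-PLANE.1, 7 to 8 for si-PLANE.2 and 6 to 7 for si-PLANE.2 against si-PLANE.1, and 0 to 0 and 0 to 28 transcripts in si-PLANE.1 and si-PLANE.2. The 0 came from leaving out either si-PLANE.2 library, and the cause was not tested.

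The median of all genes in si-PLANE.2 moved from -0.03 to -0.22 on log2(FPKM + 1), -0.27 on log2(FPKM + 0.1), -0.37 on log2(TPM + 1) and -0.20 by total count. GCLC in si-PLANE.2 reversed to -0.79 on either FPKM scale, -0.95 on TPM and -0.083 by total count, and to -0.44 against si-PLANE.1 on log2(FPKM + 1). SLC7A11 reversed to 0.008 on TPM in si-PLANE.1. In si-PLANE.2 it lay between -0.22 and 0.007 without single libraries, and against si-PLANE.1 it was -0.25 on log2(FPKM + 1) and between -0.10 and 0.36 without single libraries. ENST00000280612 (SLC7A11-201) reversed to 0.024 with no minimum FPKM and 0.035 in a fit of all 6 libraries, and lay between -0.18 and 0.075 without single libraries. ENST00000393623 (KEAP1-202) reversed to 0.044 on TPM in si-PLANE.1, and ENST00000586532 (NFE2L2-211) lay between -0.97 and 0.105 there without single libraries. On TPM in si-PLANE.2, ENST00000379047 (NQO1-203) was -0.015 and ENST00000503506 (TXNRD1-201) -0.038. ENST00000397736 of TXNRD1 reversed to -0.084 by total count, -0.086 and -0.088 on the FPKM scales and -0.24 on TPM, and lay between -0.069 and 0.48 without single libraries. HMOX1 lost its call on TPM (0.47, adjusted p = 0.057, limma), and GCLC gained one with its main isoform alone (0.57, adjusted p = 0.0324, edgeR).

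Shares of the main isoform depend on the unit. As a percent of counts, in si-ctrl, si-PLANE.1 and si-PLANE.2, they were 14.6%, 14.7% and 7.74% for NFE2L2, 26.3%, 25.4% and 37.1% for NQO1, 61.4%, 61.7% and 86.3% for GCLC, 98.3%, 98.9% and 91.1% for GCLM, 14.7%, 12.9% and 37.3% for TXNRD1 and 99.7%, 99.4% and 99.9% for SLC7A11. For KEAP1 they were 84.7% in si-ctrl and 71.9% in si-PLANE.2, and for HMOX1 98.9% in si-ctrl and 99.0% in si-PLANE.1. With the main isoform chosen on si-ctrl, the shares of FPKM were 32.9%, 31.3% and 18.7% for GCLC-210 and 23.4%, 22.3% and 10.9% for TXNRD1-201.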
